A study of Saccharomyces cerevisiae with 90 samples.

Results

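The genes described here encode the respiratory chain and the ATP synthase of budding yeast mitochondria. They are 40 nuclear genes taken by name: 3 NADH dehydrogenases, 9 subunits of the cytochrome bc1 complex, both forms of cytochrome c, 7 subunits of cytochrome oxidase, 6 factors that assemble it, 5 subunits of the F1 head of the ATP synthase, 6 of its stalk and membrane part, and 2 inhibitors of that enzyme. All 40 were among the 5562 genes measured in colonies grown for 10 h. In the second table, of cells from synthetic complete (SC) medium, 39 of them were among 5560 genes, and STF1 was not analysed there. None was left out for a low value.

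In yeast, which has no proton-pumping complex I, the dehydrogenase Ndi1 takes electrons from NADH inside the mitochondrion, and Nde1 and Nde2 take them from NADH of the cytosol. Ubiquinone carries the electrons to the bc1 complex, and cytochrome c carries them on to cytochrome oxidase. Both complexes pump protons, and the ATP synthase uses the return of the protons to make ATP. The genes are known to be lowered by glucose and raised by the HAP complex, whose activating subunit is Hap4. Of the proteins of this set, cytochrome c has a second form used when oxygen is low.

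The series measured mRNA on Affymetrix arrays in strains that switch between yeast-form and filamentous growth, with 70 arrays of colonies and 20 of cells in SC medium. Wild-type colonies of the G85 background were yeast-form on synthetic complete dextrose agar (6 arrays) and filamentous on low-ammonium dextrose agar with uracil and histidine (3 arrays). Yeast-form replicate 6 has no genotype in its labels and was grouped by its title. The mutant colonies all grew on the low-ammonium agar. They are G85 with tec1::bcKanMX4 or cup9::bcKanMX4 (5 arrays each), with sfl1::bcKanMX4, sok2::bcKanMX4, skn7::bcKanMX4 or yap6::NatMX4 (3 arrays each), or with a pair of these alleles (13 strains of 3 arrays each), and are called by the deleted genes. These 6 genes encode transcription factors. The SC strains are MATa/alpha diploids homozygous for ura3-52, and each labelled genotype is 1 strain. The ira1, ira1RA, ira2 and cAMP strains are also homozygous for leu2::hisG and his3::hisG, which the wild type and the RAS2 strains are not, and the cAMP strains carry TRP1+/trp1::hisG. Strain SR1187 is the wild type with the empty plasmid pRS316 (4 arrays). Strain SR595, called ira1 here, carries ira1::HIS3/ira1::LEU2 and pRS316. SR954, ira1RA, has the same deletion with pRS316-IRA1RA, an arginine-to-alanine point mutant. SR563, ira2, carries ira2::HIS3/ira2::LEU2 and pRS316. SR453, ras2v19, carries pRS316-RAS2V19, a dominant active allele. SR753, ras2a22, carries pRS316-RAS2A22, a dominant negative allele. These 5 strains have 2 arrays each. A further 6 arrays hold diploids homozygous for ras1::HIS3, a ras2 deletion and pde2::kanR, given 0 mM (2 arrays), 0.5 mM (1), 1 mM (1) or 2 mM cAMP (2). The 0 mM arrays are of strain SR959 with plasmid pRS315 and the others of SR957 without it, so the concentration and the strain cannot be told apart. Ira1 and Ira2 switch Ras off, Ras raises cAMP, and Pde2 breaks cAMP down.

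Levels of the colonies are on the log2 scale of the deposited values and those of the SC table are log2 intensities, whose floor is -0.01. A change is the difference of 2 group means on that scale, ± its standard error from the limma fit, and a gene was called at an adjusted p under 0.05 over all genes of a comparison. Nothing states that arrays of 1 group came from separate cultures, so p-values measure the spread between arrays, which may be technical. The number of arrays limits the precision. Called genes were picked for a difference between the groups, so arrays of a called gene that do not overlap describe the values and add no support. Some libraries read against their labels. The library labelled tec1 replicate 1 had TEC1 at 8.68 and CUP9 at 4.07, the library labelled cup9 replicate 4 had TEC1 at 4.57 and CUP9 at 8.21, and CUP9 was not lower in the strain labelled cup9-yap6 (8.17 ± 0.18, SD) than in the filamentous wild type (7.78 ± 0.06). In their own single deletions SFL1 (-1.47), SOK2 (-4.07), SKN7 (-3.53) and YAP6 (-1.62) were lower. YAP6 was also lower in strains that keep it, such as sfl1 (-0.95) and skn7 (-1.01), so it is a weak check of the yap6 label. Probe sets of deleted genes still read 4.01 (SOK2 in sok2), 4.14 (SKN7 in skn7) and 5.59 (SFL1 in sfl1) on average. Colony levels in this range, such as those of NDE2, can be largely background, and changes there can be understated. The 2 ras2a22 arrays of the SC table hold many identical values, so the spread between them can be too small. Of 1292 probe sets at an intensity of 100 or more on both, 316 (24.5 percent) held the identical deposited value, against at most 1.80 percent in any other pair of the 20 SC arrays. Among the respiratory genes 11 of 39 were identical on both (NDI1, NDE1, QCR8, CYC1, COX8, COX12, COX17, COA4, ATP2, ATP7 and ATP14), against 0 to 2 in the replicate pairs of the other groups. Counts in SC medium were therefore also made with both ras2a22 arrays counted as 1 sample, an alternative chosen after seeing the data. They are given where they moved by over 1.5 times. Over 10 haploid and mating markers the mean log2 level of an array ran from 4.87 to 5.10 in the wild-type colonies and reached 5.77 in tec1-sfl1, and over 6 meiosis markers it ran from 3.69 to 4.31 in all colonies.

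Filamentous wild-type colonies had less mRNA of much of the respiratory chain than yeast-form colonies: 18 of the 40 genes fell, 1 rose and 21 did not pass (45 percent of them were called lower and 2.5 percent higher, against 23.2 and 21.6 percent of all genes). The median change was -0.33, against 0.05 for all genes, and with quantile normalization -0.16 against 0.05. The form and the medium change together and cannot be told apart, nor can fewer cells of a type and less RNA per cell. With quantile normalization 3 genes were called higher and 14 lower, beside 1329 higher and 1165 lower of the 5562 genes.

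All 3 NADH dehydrogenases fell. NDE1 (external) read 11.34, 11.56 and 11.35 in filamentous colonies and 12.74 to 12.87, median 12.86 in yeast-form ones (-1.42 ± 0.28, adjusted p = 4.81e-05). NDI1 (internal) read 8.27, 8.26 and 8.02 against 9.16 to 9.50, median 9.24 (-1.11 ± 0.16, adjusted p = 1.38e-07). NDE2, the other external enzyme, read 4.63, 4.30 and 4.42 against 5.06 to 5.46, median 5.26 (-0.82 ± 0.22, adjusted p = 0.00251). The arrays of the forms did not overlap for any of the 3.

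In the bc1 complex 3 of 9 genes fell. RIP1, the Rieske iron-sulfur protein, read 11.10, 11.31 and 11.15 in filamentous colonies and 12.14 to 12.25, median 12.19 in yeast-form ones (-1.01 ± 0.17, adjusted p = 3.96e-06). QCR10 (-0.98) and QCR9 (-0.62), both small subunits, also fell, while cytochrome c1 (CYT1, -0.14) and the core proteins COR1 (-0.37) and QCR2 (-0.42) did not pass. Of the cytochrome oxidase subunits COX4 (-0.99) and COX9 (-0.57) were lower and 5 of 7 did not pass. COX4 read 11.09, 10.45 and 11.03 against 11.74 to 11.96, median 11.85 (-0.99 ± 0.15, adjusted p = 8.65e-07), with filamentous array 2 the lowest of all.

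Of the 6 assembly factors 4 fell. COX15, which makes heme A, read 10.14, 9.85 and 9.94 in filamentous colonies against 10.96 to 11.44, median 11.26 (-1.25 ± 0.20, adjusted p = 2e-06). COX10, the enzyme of the preceding step of heme A synthesis (-0.67), SCO1, a copper carrier (-0.50), and COA4 (-0.55) were lower by less, and the call of COA4 was lost without filamentous wild-type arrays 1 or 3 (adjusted p up to 0.0688). The copper chaperone COX17 (0.53, adjusted p = 0.071) and COX11 (0.11) did not pass. With quantile normalization 1 assembly factor was called higher and 4 lower.

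The inhibitor genes of the ATP synthase differed: INH1, which blocks ATP hydrolysis when the proton gradient is lost, read 8.26, 8.20 and 8.30 against 9.23 to 9.94, median 9.67 (-1.40 ± 0.22, adjusted p = 8.76e-07), and its relative STF1 did not pass (-0.26). In the F1 head ATP15 (-0.71), ATP2 (-0.67) and ATP1 (-0.36), the epsilon, beta and alpha subunits, were called lower, but only 1 of the 5 F1 genes was with quantile normalization. Of the 6 stalk and membrane genes ATP5 (-0.53) and ATP17 (-0.39) were called lower and the median was 0.13. With quantile normalization none of the 6 was called lower and 1 was called higher. The call of ATP17 was also lost without yeast-form arrays 2, 3 or 5 or filamentous wild-type arrays 1, 2 or 3 (adjusted p up to 0.0962).

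The cytochrome c genes, used in turn as oxygen changes, gave the sole rise. CYC7, the form known from low oxygen, read 5.97, 6.52 and 5.85 in filamentous colonies and 4.96 to 5.53, median 5.27 in yeast-form ones (0.87 ± 0.34, adjusted p = 0.0297). The groups did not overlap, but the call was lost without yeast-form array 5 or filamentous wild-type arrays 1 or 2 (adjusted p up to 0.163) and under the block on replicate number, which the correlations of same-numbered arrays let stand for a pairing here (adjusted p up to 0.163 over the alternatives). CYC1, the main form, read 11.57, 12.07 and 11.54 against 11.68 to 11.93, median 11.80 and was not called (-0.08 ± 0.23, adjusted p = 0.803). Within an array CYC7 minus CYC1 averaged -5.62 in filamentous and -6.57 in yeast-form colonies, a difference of 0.95 (exact two-sided permutation test, p = 0.0238, the smallest that 6 against 3 arrays allow, also after adjustment over the 3 differences tested). NDE2 minus NDE1 differed by 0.60 (-6.97 against -7.57) and STF1 minus INH1 by 1.14 (-0.16 against -1.30), with the same p. With quantile normalization NDE2 minus NDE1 differed by 0.30 (adjusted p = 0.119). Over the 3 same-numbered pairs of arrays, which cannot give a p under 0.25, the replicate block gave 0.82, 0.67 and 1.18. These differences compare probe sets of unlike genes within an array, so they show unequal change of the readings and not which gene is more abundant. No array of 1 form overlapped the other in any of the 3 differences. NDE2, and CYC7 in yeast-form colonies, read in the range of probe sets of deleted genes, where a change of mRNA can be understated. The smaller fall of NDE2 than of NDE1 therefore need not be an unequal change of mRNA.

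**Figure D1:**
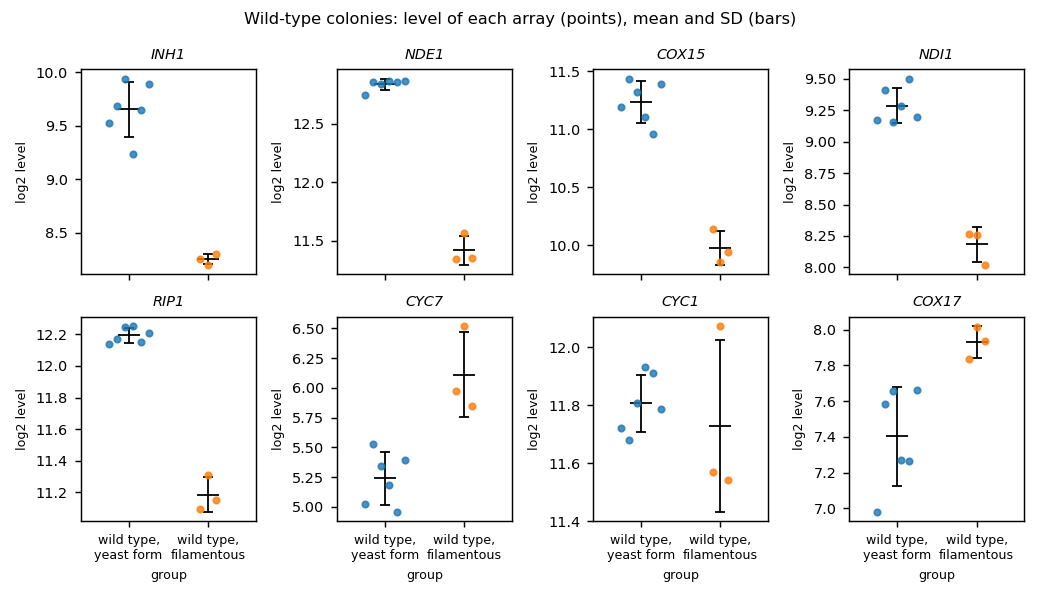
Log2 level of 8 respiratory genes (vertical axes) in yeast-form (6 arrays) and filamentous (3 arrays) wild-type colonies. Points are arrays, horizontal bars group means and error bars SD. INH1, NDE1, COX15, NDI1 and RIP1 sit lower in all filamentous arrays, CYC7 sits higher (5.85 to 6.52 against 4.96 to 5.53), and the CYC1 arrays overlap.

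Genes that work beside these moved in both directions. All 4 subunits of succinate dehydrogenase, which also feeds ubiquinone, fell (SDH4 -1.22, SDH2 -1.14, SDH1 -0.97, SDH3 -0.85). HAP4 itself read 7.73, 8.13 and 7.48 in filamentous against 6.49 to 6.79, median 6.60 in yeast-form colonies (1.15 ± 0.27, adjusted p = 0.000497) and was 1 of 2 regulators of 6 that rose. HEM13, a heme synthesis gene that low oxygen raises, was lower (-1.14), and 0 of 4 low-oxygen genes rose. Of 10 haploid and mating markers AGA1 (-1.11) and STE3 (-0.43) were called lower, and no meiosis marker of 6 was called. The STE3 call was lost without filamentous wild-type arrays 1 or 3 (adjusted p up to 0.132). Their part in the result was not tested.

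In the colonies of deletion strains every change is against the same 3 filamentous wild-type arrays, so the comparisons are not independent. A wild-type array that stands apart moves all of them. The means of COX4 and COX15 were lower in the filamentous wild type than in any of the other 20 colony groups.

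Few or none of the respiratory genes were called in the strains labelled tec1, cup9 and sok2, where few of all genes were called. Missing calls do not show that the genes stayed unchanged. In the strain labelled cup9 the change of 37 of the 40 genes was positive, with a median of 0.16 against 0.03 for all genes. In the strain labelled tec1 COA4, a cytochrome oxidase assembly factor, rose alone (0.0719 percent of all genes were called higher). Its arrays read 6.65, 6.63, 6.26, 6.38 and 6.12 against 5.44, 5.72 and 5.49 (0.86 ± 0.19, adjusted p = 0.0433). The groups did not overlap, but the count fell to 0 without filamentous wild-type arrays 1, 2 or 3 or tec1 arrays 1, 2 or 4 (adjusted p up to 0.262), without both libraries that read against their labels and with the replicate block. In the strain labelled cup9 COA4 and NDI1 rose (0.27 percent of all genes were called higher). COA4 read 6.60, 6.46, 6.16, 6.67 and 7.07 (1.04 ± 0.19, adjusted p = 0.00226) and NDI1 8.76, 9.44, 8.69, 8.55 and 9.07 (0.72 ± 0.16, adjusted p = 0.0238), and neither overlapped the wild type. The NDI1 call was lost without filamentous wild-type arrays 1, 2 or 3 or cup9 arrays 2 or 5 (adjusted p up to 0.227), and a fit of only these groups called neither. With quantile normalization all-gene calls went from 15 higher and 4 lower to 24 and 14. In the sok2 strain limma called 0 of 40 (6 at an unadjusted p under 0.05, with 1.17 percent of all genes called). 

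The cytochrome c genes and HAP4 were not called in these 3 strains. CYC1 read 12.14, 11.85, 10.95, 11.72 and 11.78 in tec1, 12.03, 11.98, 11.93, 12.01 and 12.35 in cup9 and 12.06, 11.82 and 11.59 in sok2 (changes of -0.04, 0.33 and 0.09). CYC7 read 6.72, 6.63, 6.00, 6.08 and 6.11, 6.90, 7.54, 6.07, 6.08 and 7.18 and 6.81, 6.59 and 6.28 in the same order (0.20, 0.64 and 0.45). HAP4 changed by -0.06, -0.07 and -0.40.

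Colonies without SFL1 had lower mRNA of bc1 subunits, of cytochrome oxidase subunits and of the stalk of the ATP synthase. Of the 40 genes 14 fell and 1 rose (35 and 2.5 percent, against 14.5 and 10.3 percent of all genes), with a median of -0.32 against -0.08 for all genes. Without sfl1 array 3, 9 genes were called, none higher. The largest fall was that of COX17, which brings copper to cytochrome oxidase, at 6.61, 6.44 and 6.43 against 7.84, 8.02 and 7.94 (-1.44 ± 0.28, adjusted p = 0.000213). CYC1 read 9.82, 10.79 and 10.78 against 11.57, 12.07 and 11.54 (-1.26 ± 0.27, adjusted p = 0.000517). CYC7, at 4.94, 5.71 and 6.73, spread widely and was not called (-0.32 ± 0.39). In none of the 14 genes that fell did the arrays overlap.

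In the bc1 complex 5 of 9 genes fell in the sfl1 strain, with a median of -0.71. QCR7, which sits beside cytochrome b, read 9.77, 10.15 and 9.83 against 10.97, 11.34 and 10.95 (-1.17 ± 0.26, adjusted p = 0.000798). The core protein QCR2 read 9.81, 9.60 and 10.38 against 10.99, 11.00 and 10.99 (-1.07 ± 0.21, adjusted p = 0.000246). CYT1 (-1.02), QCR6 (-0.73) and QCR8 (-0.71) fell by less, and RIP1 (-0.05) did not pass. Of the cytochrome oxidase subunits COX13 (-0.95), COX12 (-0.84) and COX6 (-0.52) were lower, and of the stalk genes ATP7, ATP20 (-0.94) and ATP4 (-0.93). ATP7, part of the stator that holds the F1 head, read 7.60, 8.41 and 7.28 against 8.80, 9.06 and 8.95 (-1.17 ± 0.24, adjusted p = 0.000381).

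ATP3, the rotating gamma subunit, was the one F1 gene called in the sfl1 strain, at 10.38, 10.87 and 9.82 against 11.00, 11.07 and 11.06 (-0.69 ± 0.21, adjusted p = 0.0128). NDE2 was the one gene that rose, at 5.30, 5.23 and 5.09 against 4.63, 4.30 and 4.42 (0.76 ± 0.26, adjusted p = 0.0267). The call of NDE2 was lost without filamentous wild-type arrays 2 or 3 or sfl1 arrays 1 or 3 (adjusted p up to 0.0883). Those of ATP3, ATP4 and ATP20 were lost without sfl1 array 3 (adjusted p up to 0.23, 0.0818 and 0.0788). That of QCR6 was lost without filamentous wild-type arrays 1 or 3 or sfl1 arrays 1 or 3 (adjusted p up to 0.15), that of QCR8 without filamentous wild-type array 2 or sfl1 arrays 1 or 3 (adjusted p up to 0.0934) and that of COX6 without filamentous wild-type arrays 1, 2 or 3 or sfl1 arrays 1 or 3 (adjusted p up to 0.249).

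HAP4 fell in the sfl1 strain, at 6.51, 6.08 and 5.80 against 7.73, 8.13 and 7.48 (-1.65 ± 0.31, adjusted p = 0.000123). All 4 low-oxygen genes rose, led by ANB1 (3.29 ± 0.71), a low-oxygen form of translation factor eIF5A, and AAC3 (0.99 ± 0.29), an ADP/ATP carrier used at low oxygen. ROX1, their heme-dependent repressor, fell (-1.02 ± 0.25). The AAC3 call was lost without filamentous wild-type array 2 (adjusted p up to 0.055). No succinate dehydrogenase gene of 4 and no haploid or mating marker of 10 was called.

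Colonies without SKN7 changed in both directions: 5 of the 40 genes rose and 5 fell. That is 12.5 percent each way, below the share of all genes (16 percent higher and 21 percent lower). With quantile normalization 4 rose and 8 fell, beside 975 higher and 1005 lower of the 5562 genes. The count was 2 without skn7 array 1, 17 without array 2, 6 without array 3 and 6 without filamentous wild-type array 3. COX15 read 11.40, 10.94 and 11.42 against 10.14, 9.85 and 9.94 (1.28 ± 0.23, adjusted p = 0.000244), while COX17 in the same assembly group read 6.40, 7.08 and 6.59 against 7.84, 8.02 and 7.94 (-1.24 ± 0.28, adjusted p = 0.00124). Neither overlapped the wild type, and both calls held without each array in turn. 

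Of the others that fell in the skn7 strain, QCR6 read 8.10, 8.66 and 8.71 (-0.85 ± 0.26, adjusted p = 0.0103). ATP20, which joins ATP synthases in pairs, read 5.92, 7.17 and 6.18 (-0.82 ± 0.27, adjusted p = 0.0159), and STF1 6.99, 7.59 and 7.39 (-0.77 ± 0.24, adjusted p = 0.0121) against 8.18, 8.13 and 7.97. ATP3 read 10.02, 11.05 and 10.24 (-0.61 ± 0.21, adjusted p = 0.0188) and overlapped the wild type. All 4 calls were lost without skn7 array 1 (adjusted p up to 0.113, 0.181, 0.118 and 0.216 over the alternatives), those of ATP20 and ATP3 also without array 3, and that of ATP3 also without filamentous wild-type array 3. 

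The other genes that rose without SKN7 were NDE2, NDI1, COX4 and RIP1. NDE2 read 5.23, 5.0 and 5.10 (0.66 ± 0.26, adjusted p = 0.039), NDI1 8.88, 8.77 and 8.70 (0.60 ± 0.18, adjusted p = 0.00937), COX4 11.42, 11.37 and 11.48 (0.57 ± 0.18, adjusted p = 0.0113) and RIP1 11.68, 11.64 and 11.84 (0.53 ± 0.20, adjusted p = 0.0285). None overlapped the wild type, but the NDE2 call was lost without filamentous wild-type arrays 2 or 3 or skn7 arrays 1 or 3 (adjusted p up to 0.146), that of NDI1 without filamentous wild-type array 3 or skn7 array 1 (adjusted p up to 0.0628), that of COX4 without filamentous wild-type array 2 or skn7 array 1 (adjusted p up to 0.132) and that of RIP1 without filamentous wild-type arrays 1 or 3 or skn7 arrays 1 or 3 (adjusted p up to 0.0919). CYC1 at 11.24, 11.55 and 11.50 (-0.30), CYC7 at 5.54, 6.24 and 5.90 (-0.22) and HAP4 at 7.13, 7.94 and 7.52 (-0.25) were not called.

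All 4 succinate dehydrogenase genes rose in the skn7 strain, led by SDH4 (1.07 ± 0.29), and HEM13 rose too (1.01 ± 0.23). The SDH4 call was lost without skn7 array 1 (adjusted p up to 0.0778). AGA1, an agglutinin subunit of mating cells (1.24 ± 0.25), and STE3, a pheromone receptor (0.57 ± 0.19), were the 2 of 10 haploid and mating markers called, and the mean log2 level over these markers ran from 5.08 to 5.38 in skn7 arrays against 4.87 to 5.06 in filamentous wild-type arrays. The STE3 call was lost without filamentous wild-type arrays 1 or 3 or skn7 array 1 (adjusted p up to 0.215). Their part in the changes of the respiratory genes was not tested.

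In the yap6 strain 6 of the 40 genes rose and 1 fell (12.6 percent of all genes were called higher and 11.1 percent lower). The count was 17 in a fit of only these groups, for which the share of all genes is not given here. It was 4 without filamentous wild-type array 1, 3 without array 3, 4 without yap6 array 1 and 3 without yap6 array 2. NDI1 read 9.28, 9.27 and 8.97 against 8.27, 8.26 and 8.02 (0.99 ± 0.18, adjusted p = 5.01e-05), with no overlap, and held without each array. ATP15, the epsilon subunit, read 11.53, 11.79 and 11.71 (0.59 ± 0.15, adjusted p = 0.00368) against 11.01, 11.19 and 11.06, and COX10 8.22, 8.75 and 8.36 (0.59 ± 0.15, adjusted p = 0.00344) against 7.68, 8.04 and 7.83. The COX10 call was lost without yap6 array 2 (adjusted p up to 0.062).

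In the bc1 complex QCR9 read 10.99, 10.88 and 10.75 (0.56 ± 0.18, adjusted p = 0.019) and QCR2 11.52, 11.56 and 11.58 (0.56 ± 0.21, adjusted p = 0.0467) in the yap6 strain, and SCO1 was higher by less (0.42 ± 0.15). COX17 was the one gene that fell, at 6.96, 7.12 and 7.16 (-0.85 ± 0.28, adjusted p = 0.0221), with no overlap. These calls were less stable: QCR9 was lost without filamentous wild-type arrays 1 or 3 or yap6 arrays 1 or 2 (adjusted p up to 0.0857), QCR2 without filamentous wild-type arrays 1, 2 or 3 or yap6 arrays 1, 2 or 3 (adjusted p up to 0.103), SCO1 without filamentous wild-type arrays 1 or 3 or yap6 arrays 1 or 2 (adjusted p up to 0.111) and COX17 without filamentous wild-type arrays 2 or 3 or yap6 array 1 (adjusted p up to 0.0832). HAP4 fell, at 6.25, 6.05 and 5.69 (-1.78 ± 0.31, adjusted p = 1.75e-05), while CYC1 at 11.78, 11.62 and 11.58 (-0.07) and CYC7 at 7.84, 6.83 and 6.53 (0.96 ± 0.39, adjusted p = 0.0636) were not called. CBP3, an assembly factor of the bc1 complex, was higher (0.74 ± 0.19), as was IME1, the starter of meiosis and 1 of 6 meiosis markers (0.70 ± 0.17), whose part in the changes was not tested. 

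In the 13 double deletion strains between 3 and 16 of the 40 genes were called. In 6 strains the calls were all higher. They were 5 in tec1-cup9 (1.42 percent of all genes were called higher), 5 in tec1-sok2 (7.59 percent), 4 in cup9-sok2 (5.29 percent), 3 in sok2-skn7 (3.7 percent), 3 in sok2-yap6 (9.78 percent) and 8 in the strain labelled cup9-yap6 (13.5 percent). In tec1-sfl1 all 4 calls were lower (8.77 percent of all genes were called lower). The other 6 strains had calls both ways. In tec1-skn7 5 were higher and 2 lower (all genes 17.3 and 14.6 percent), in cup9-skn7 3 and 1 (4.51 and 9.56 percent), and in cup9-sfl1 6 and 10 (14.6 and 21.9 percent). In sfl1-sok2 2 were higher and 4 lower (all genes 9.35 and 12 percent), in sfl1-skn7 1 and 10 (8.11 and 11.3 percent), and in sfl1-yap6 6 and 9 (23.9 and 22.7 percent). Shares of the 40 genes run from 2.5 percent for 1 gene to 25 percent for 10. They were near or under those of all genes in tec1-sfl1 (10 percent lower), cup9-sfl1 (15 percent higher and 25 lower) and sfl1-yap6 (15 and 22.5). The same held in sfl1-sok2 (5 and 10), tec1-skn7 (12.5 and 5) and sok2-yap6 (7.5 percent higher).

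The counts of the double strains moved with single arrays. Quantile normalization gave 2 higher and 0 lower in tec1-cup9, 3 and 0 in tec1-sok2, 1 and 6 in tec1-sfl1, 3 and 3 in tec1-skn7, 3 and 1 in sok2-skn7 and 8 and 1 in cup9-yap6. It also turned the balance of calls over all genes, from 79 higher and 21 lower to 21 and 25 in tec1-cup9, from 422 and 135 to 251 and 218 in tec1-sok2, from 251 and 532 to 372 and 435 in cup9-skn7 and from 752 and 474 to 687 and 659 in cup9-yap6. Leaving out 1 array gave 1 to 8 calls in tec1-cup9 (1 without its array 3, 8 without its array 2) and 1 to 3 in tec1-sfl1 (1 without any of the wild-type arrays or its own array 3). It gave 0 to 12 in tec1-sok2 (0 without its array 2, 12 without its array 1), 0 to 5 in cup9-sok2 (0 without its array 2), 0 to 2 in sok2-skn7 (0 without filamentous wild-type array 2 or its own array 2) and 1 to 6 in cup9-skn7 (1 without its array 1). It gave 4 to 23 in cup9-sfl1 (4 without its array 3), 0 to 6 in sfl1-sok2 (0 without its array 1), 3 to 13 in sfl1-skn7 (3 without its array 1), 6 to 13 in sfl1-yap6 (6 without its array 3), 4 to 7 in cup9-yap6 (4 without its array 1) and 1 to 5 in sok2-yap6 (5 without its array 2). The mean log2 level of the haploid and mating markers was 5.55 to 5.77 in tec1-sfl1, 5.35 to 5.49 in tec1-skn7, 5.26 to 5.55 in sok2-skn7 and 5.19 to 5.37 in cup9-skn7, above all wild-type arrays. That of the 6 meiosis and sporulation markers was 4.04 to 4.22 in sfl1-sok2, 3.96 to 4.06 in tec1-cup9, 3.94 to 4.07 in sfl1-yap6 and 3.92 to 4.22 in sok2-yap6 (3.93 to 4.07 in the yap6 strain), above all wild-type arrays, which reached 3.90. The part of both in the changes was not tested.

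**Figure D2:**
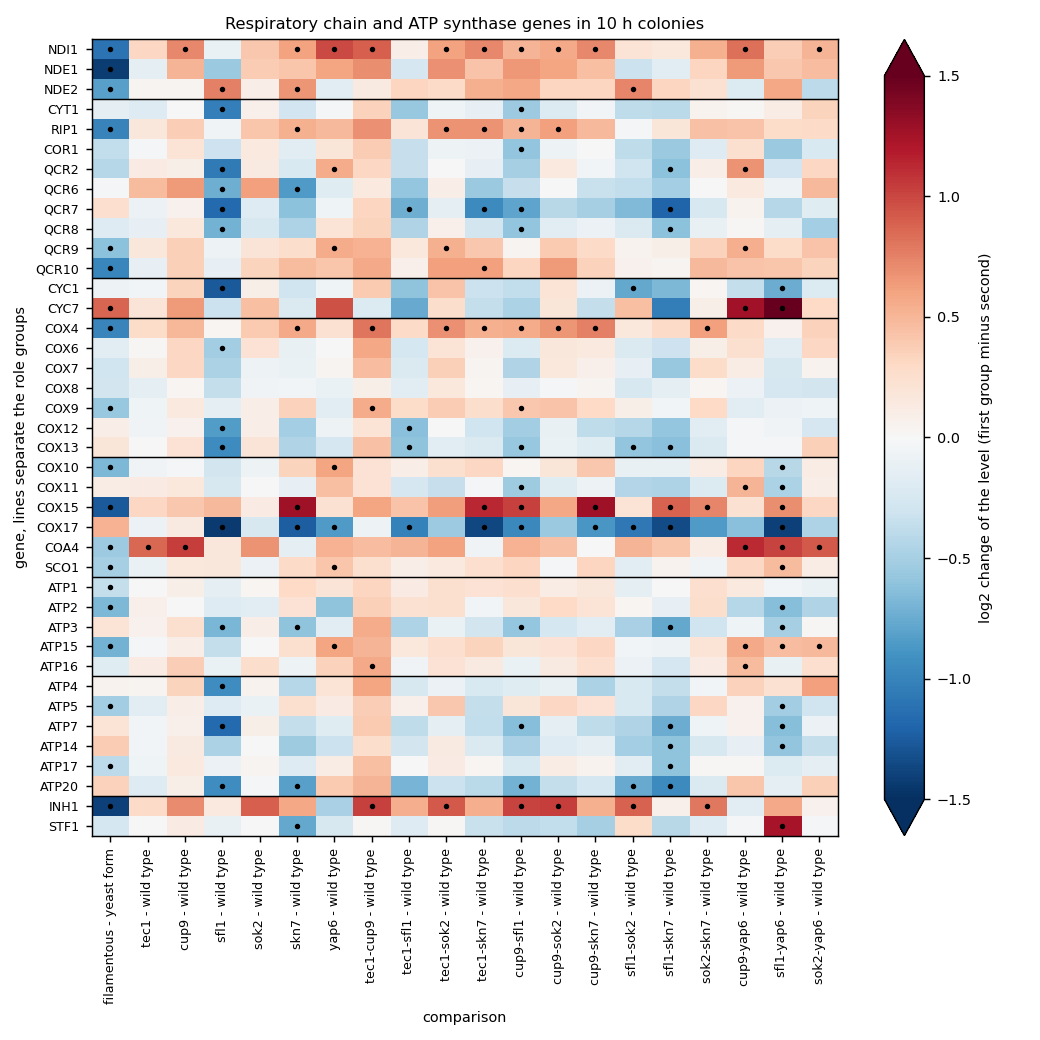
Change of each of the 40 genes (rows, with lines between the role groups) in the 20 comparisons of 10 h colonies (columns), as a colour from -1.5 (blue) to 1.5 (red) on the log2 scale. Dots mark calls. The first column compares the forms of the wild type, and all others share the 3 filamentous wild-type arrays. COX17 is blue in most columns with an sfl1, skn7 or yap6 deletion (-1.44 in sfl1, -1.24 in skn7, -0.85 in yap6).

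COX17 was called lower in 7 of the 13 double strains, against the same wild-type arrays (7.84, 8.02 and 7.94). It read 6.81, 6.36 and 6.53 (-1.36 ± 0.28, adjusted p = 0.000486) in tec1-skn7, 6.26, 7.13 and 6.35 (-1.35 ± 0.28, adjusted p = 0.000653) in sfl1-skn7 and 6.94, 6.19 and 6.46 (-1.40 ± 0.28, adjusted p = 4.24e-05) in sfl1-yap6, and these 3 calls held without each array in turn. It read 6.34, 7.25 and 7.16 (-1.01 ± 0.28, adjusted p = 0.0116) in tec1-sfl1, 7.44, 6.70 and 6.76 (-0.96 ± 0.28, adjusted p = 0.00718) in cup9-sfl1 and 6.43, 7.13 and 7.02 (-1.07 ± 0.28, adjusted p = 0.00477) in sfl1-sok2. In cup9-skn7 it read 6.79, 7.22 and 7.18 (-0.87 ± 0.28, adjusted p = 0.0329). None of the 7 overlapped the wild type. The tec1-sfl1 call was lost without tec1-sfl1 array 1 (adjusted p up to 0.132), the cup9-sfl1 call without cup9-sfl1 array 3 (adjusted p up to 0.0517), the sfl1-sok2 call without sfl1-sok2 array 1 (adjusted p up to 0.0759) and the cup9-skn7 call without filamentous wild-type arrays 1, 2 or 3 or cup9-skn7 array 1 (adjusted p up to 0.183). In the other 6 strains the change ran from -0.85 to -0.08 and was not called.

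COX15 was called higher in 6 double strains, against wild-type arrays of 10.14, 9.85 and 9.94. In tec1-skn7 it read 10.92, 11.14 and 11.27 (1.13 ± 0.23, adjusted p = 0.000499), in cup9-skn7 11.61, 11.19 and 10.94 (1.27 ± 0.23, adjusted p = 0.000764) and in cup9-sfl1 10.62, 11.11 and 11.30 (1.03 ± 0.23, adjusted p = 0.000937), and these calls held without each array. In sfl1-skn7 it read 10.89, 10.54 and 11.15 (0.88 ± 0.23, adjusted p = 0.00651), lost without sfl1-skn7 array 3 (adjusted p up to 0.0543). In sok2-skn7 it read 10.52, 11.09 and 10.54 (0.74 ± 0.23, adjusted p = 0.0418), lost without filamentous wild-type arrays 1, 2 or 3 or sok2-skn7 arrays 1 or 2 (adjusted p up to 0.285). In sfl1-yap6 it read 10.82, 10.53 and 10.67 (0.69 ± 0.23, adjusted p = 0.0122), lost without sfl1-yap6 array 1 (adjusted p up to 0.0504). No array overlapped the wild type in these 6, and in the other 7 the change ran from 0.20 to 0.63. The assembly factors COX17 and COX15 thus had opposite signs in the skn7 colonies, but also in every double strain. Both were called in cup9-sfl1 and sfl1-yap6 too, which keep SKN7. All these changes share the filamentous wild type, where the mean of COX15 was the lowest of the 21 colony groups.

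COA4 was called higher in the 3 double strains labelled with a yap6 deletion, against wild-type arrays of 5.44, 5.72 and 5.49. It read 6.48, 6.81 and 6.72 (1.12 ± 0.22, adjusted p = 0.000105) in cup9-yap6, 6.81, 6.24 and 6.63 (1.01 ± 0.22, adjusted p = 0.000112) in sfl1-yap6 and 6.48, 6.48 and 6.45 (0.92 ± 0.22, adjusted p = 0.00209) in sok2-yap6. None overlapped, and all 3 calls held without each array. In the yap6 single strain its change was 0.53 ± 0.22 and was not called (adjusted p = 0.068). COX11, which inserts copper into cytochrome oxidase, was called in 3 double strains (cup9-sfl1 -0.53, cup9-yap6 0.50, sfl1-yap6 -0.47), in each of which its arrays overlapped the wild type. In sfl1-yap6 SCO1 read 7.94, 8.18 and 8.60 (0.47 ± 0.15, adjusted p = 0.00679) and COX10 was lower (-0.42 ± 0.15). The SCO1 call was lost without sfl1-yap6 array 3 (adjusted p up to 0.14) and that of COX10 without filamentous wild-type array 2 or sfl1-yap6 arrays 1 or 3 (adjusted p up to 0.123).

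**Figure D3:**
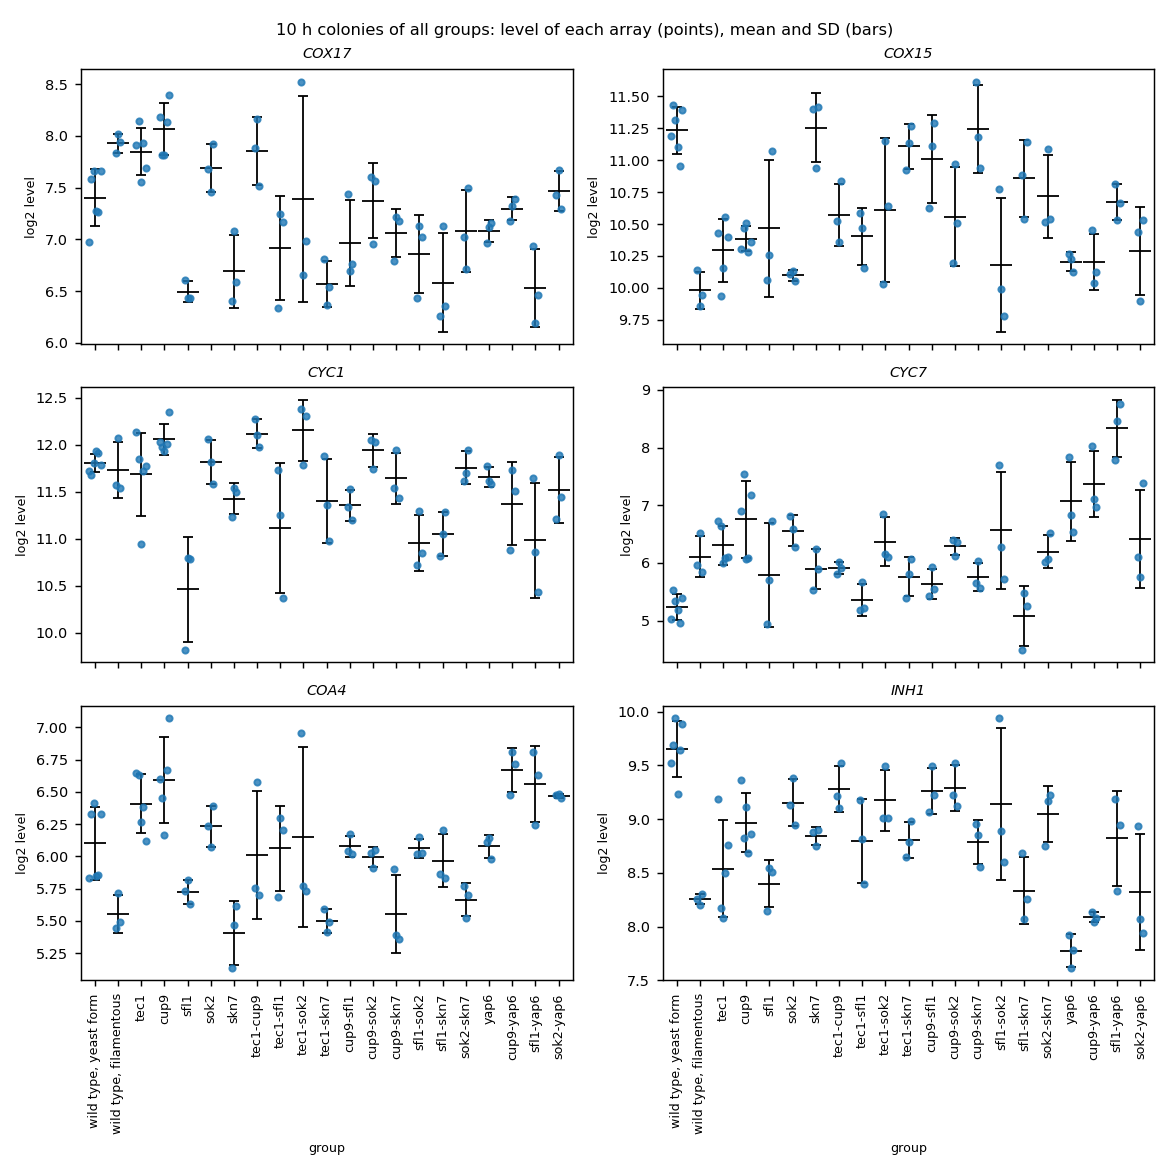
Log2 level (vertical axes) of COX17, COX15, CYC1, CYC7, COA4 and INH1 in every colony group. Points are arrays, horizontal bars group means and error bars SD. All COX17 arrays of sfl1 (6.43 to 6.61) lie under all filamentous wild-type arrays (7.84 to 8.02), all CYC7 arrays of sfl1-yap6 (7.79 to 8.75) lie over them (5.85 to 6.52), and filamentous wild-type INH1 (8.20 to 8.30) is under all yeast-form arrays (9.23 to 9.94).

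Of the inhibitors, INH1 was called higher in 6 double strains, against wild-type arrays of 8.26, 8.20 and 8.30. It read 9.07, 9.49 and 9.23 (1.01 ± 0.25, adjusted p = 0.00203) in cup9-sfl1, which held without each array. It read 9.22, 9.10 and 9.52 (1.02 ± 0.25, adjusted p = 0.0184) in tec1-cup9, 9.01, 9.50 and 9.01 (0.92 ± 0.25, adjusted p = 0.0141) in tec1-sok2 and 9.23, 9.53 and 9.12 (1.04 ± 0.25, adjusted p = 0.00764) in cup9-sok2. It read 9.94, 8.89 and 8.60 (0.89 ± 0.25, adjusted p = 0.00875) in sfl1-sok2 and 8.75, 9.17 and 9.23 (0.79 ± 0.25, adjusted p = 0.0404) in sok2-skn7. No array overlapped the wild type in these 6. The tec1-cup9 call was lost without filamentous wild-type arrays 1, 2 or 3 or tec1-cup9 arrays 1 or 3 (adjusted p up to 0.218), tec1-sok2 without filamentous wild-type array 3 or tec1-sok2 array 2 (adjusted p up to 0.133), cup9-sok2 without cup9-sok2 array 2 (adjusted p up to 0.112), sfl1-sok2 without sfl1-sok2 array 1 (adjusted p up to 0.249) and sok2-skn7 without filamentous wild-type arrays 1, 2 or 3 or sok2-skn7 arrays 1, 2 or 3 (adjusted p up to 0.177). STF1 was called in sfl1-yap6, at 9.60, 9.16 and 9.24 against 8.18, 8.13 and 7.97 (1.24 ± 0.24, adjusted p = 3.24e-05), with no overlap and in every fit without 1 array.

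NDI1 was called higher in 8 double strains, against wild-type arrays of 8.27, 8.26 and 8.02. It read 9.13, 9.03 and 9.06 (0.89 ± 0.18, adjusted p = 0.00313) in tec1-cup9, 8.92, 8.78 and 9.0 (0.72 ± 0.18, adjusted p = 0.00279) in tec1-skn7 and 9.06, 9.01 and 8.95 (0.82 ± 0.18, adjusted p = 0.000606) in cup9-yap6, and these calls held without each array. It read 9.06, 8.91 and 8.72 (0.72 ± 0.18, adjusted p = 0.0101) in cup9-skn7, 8.43, 8.99 and 8.92 (0.60 ± 0.18, adjusted p = 0.0274) in tec1-sok2 and 8.61, 8.97 and 8.67 (0.57 ± 0.18, adjusted p = 0.0376) in cup9-sok2. It read 8.66, 8.86 and 8.54 (0.51 ± 0.18, adjusted p = 0.0251) in cup9-sfl1 and 8.77, 8.56 and 8.75 (0.51 ± 0.18, adjusted p = 0.0468) in sok2-yap6. No array overlapped the wild type in any of the 8. The cup9-skn7 call was lost without filamentous wild-type array 3 or cup9-skn7 array 1 (adjusted p up to 0.0971), tec1-sok2 without filamentous wild-type arrays 1 or 3 or tec1-sok2 arrays 2 or 3 (adjusted p up to 0.181), cup9-sok2 without filamentous wild-type arrays 1, 2 or 3 or cup9-sok2 arrays 2 or 3 (adjusted p up to 0.323), cup9-sfl1 without filamentous wild-type array 3 or cup9-sfl1 array 2 (adjusted p up to 0.116) and sok2-yap6 without filamentous wild-type arrays 1, 2 or 3 or sok2-yap6 arrays 1 or 3 (adjusted p up to 0.186). NDE2 was called in sfl1-sok2, at 6.38, 4.40 and 4.75 (0.73 ± 0.26, adjusted p = 0.0355), with 1 array far above the others and overlap with the wild type, and was lost without filamentous wild-type arrays 2 or 3 or sfl1-sok2 array 1 (adjusted p up to 0.806). NDE1 was called in none.

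COX4 was called higher in 7 double strains: tec1-cup9 at 11.60, 11.52 and 11.84 (0.80 ± 0.18, adjusted p = 0.00708), cup9-skn7 at 11.78, 11.67 and 11.37 (0.75 ± 0.18, adjusted p = 0.0067) and tec1-sok2 at 11.22, 11.74 and 11.67 (0.69 ± 0.18, adjusted p = 0.00929). It read 11.40, 11.66 and 11.48 (0.66 ± 0.18, adjusted p = 0.0154) in cup9-sok2, 11.32, 11.57 and 11.52 (0.61 ± 0.18, adjusted p = 0.0269) in sok2-skn7, 11.46, 11.51 and 11.26 (0.56 ± 0.18, adjusted p = 0.0134) in cup9-sfl1 and 11.57, 11.26 and 11.33 (0.53 ± 0.18, adjusted p = 0.02) in tec1-skn7. Filamentous wild-type array 2 was low (11.09, 10.45 and 11.03), and all 7 calls were lost without it (adjusted p up to 0.163, 0.0767, 0.259, 0.169, 0.187, 0.147 and 0.196 over the alternatives). COX9 was called in tec1-cup9 at 11.04, 10.83 and 11.15 (0.55 ± 0.16, adjusted p = 0.0479) and was lost without filamentous wild-type arrays 1 or 3 or tec1-cup9 arrays 1 or 3 (adjusted p up to 0.372). COX13 was lower in tec1-sfl1 at 9.37, 9.47 and 9.04 (-0.61 ± 0.22, adjusted p = 0.041), sfl1-sok2 at 9.44, 9.37 and 9.10 (-0.60 ± 0.22, adjusted p = 0.0395) and sfl1-skn7 at 8.91, 9.37 and 9.53 (-0.63 ± 0.22, adjusted p = 0.0325), and COX12 in tec1-sfl1 at 11.12, 10.86 and 10.44 (-0.62 ± 0.22, adjusted p = 0.0402). These 4 did not overlap the wild type, and each was lost without each of the filamentous wild-type arrays (adjusted p up to 0.153, 0.134, 0.24 and 0.197 over the alternatives).

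Subunits of the bc1 complex moved in either direction in the double strains. QCR7 was lower in tec1-skn7 at 9.88, 10.48 and 10.05 (-0.95 ± 0.26, adjusted p = 0.00462), sfl1-skn7 at 8.89, 10.49 and 10.26 (-1.21 ± 0.26, adjusted p = 0.000786), cup9-sfl1 at 10.69, 10.44 and 9.77 (-0.79 ± 0.26, adjusted p = 0.0143) and tec1-sfl1 at 10.35, 10.66 and 10.03 (-0.74 ± 0.26, adjusted p = 0.0372), against 10.97, 11.34 and 10.95. None overlapped. The tec1-skn7 call held without each array, the sfl1-skn7 call was lost without sfl1-skn7 array 1 (adjusted p up to 0.0623), the cup9-sfl1 call without filamentous wild-type array 2 or cup9-sfl1 array 3 (adjusted p up to 0.174) and the tec1-sfl1 call without filamentous wild-type arrays 1, 2 or 3 or tec1-sfl1 arrays 1 or 3 (adjusted p up to 0.144). RIP1 was higher in tec1-skn7 at 11.81, 11.86 and 11.91 (0.67 ± 0.20, adjusted p = 0.00783), tec1-sok2 at 11.58, 12.07 and 11.92 (0.67 ± 0.20, adjusted p = 0.0215) and cup9-sok2 at 11.63, 12.03 and 11.73 (0.61 ± 0.20, adjusted p = 0.0372), with no overlap with 11.10, 11.31 and 11.15. In cup9-sfl1 it read 11.26, 11.97 and 11.85 (0.51 ± 0.20, adjusted p = 0.0373) and overlapped. The tec1-skn7 call held, and the others were lost without filamentous wild-type arrays 1 or 3 or tec1-sok2 arrays 2 or 3 (adjusted p up to 0.157), without filamentous wild-type arrays 1, 2 or 3 or cup9-sok2 arrays 2 or 3 (adjusted p up to 0.321) and without filamentous wild-type arrays 1 or 3 or cup9-sfl1 arrays 2 or 3 (adjusted p up to 0.195).

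QCR2 was higher in cup9-yap6 at 11.72, 11.68 and 11.62 (0.68 ± 0.21, adjusted p = 0.0148) against 10.99, 11.00 and 10.99, lost without cup9-yap6 array 1 (adjusted p up to 0.0515). QCR9 was higher in tec1-sok2 at 10.94, 10.70 and 10.89 (0.53 ± 0.18, adjusted p = 0.0486) and QCR10 in tec1-skn7 at 9.92, 9.98 and 9.99 (0.62 ± 0.23, adjusted p = 0.0377). The QCR9 call was lost without filamentous wild-type arrays 1 or 3 or tec1-sok2 arrays 1, 2 or 3 (adjusted p up to 0.19) and the QCR10 call without filamentous wild-type arrays 1, 2 or 3 or tec1-skn7 arrays 1, 2 or 3 (adjusted p up to 0.0862). COR1, the other core protein, was called lower in cup9-sfl1 at 8.49, 7.38 and 7.91 (-0.59 ± 0.24, adjusted p = 0.0474), where it overlapped 8.54, 8.44 and 8.57, and was lost without filamentous wild-type arrays 1, 2 or 3 or cup9-sfl1 arrays 2 or 3 (adjusted p up to 0.361).

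The cytochrome c genes parted most in sfl1-yap6. CYC7 read 7.79, 8.45 and 8.75 against 5.97, 6.52 and 5.85 (2.22 ± 0.39, adjusted p = 3.78e-06), did not overlap and held without each array. It also rose in the strain labelled cup9-yap6, at 8.02, 7.11 and 6.98 (1.26 ± 0.39, adjusted p = 0.0138), a call lost without filamentous wild-type array 3 or cup9-yap6 array 1 (adjusted p up to 0.138). CYC1 was lower in sfl1-sok2 at 10.73, 11.30 and 10.85 (-0.77 ± 0.27, adjusted p = 0.0307), with no overlap with 11.57, 12.07 and 11.54, and in sfl1-yap6 at 11.64, 10.87 and 10.44 (-0.75 ± 0.27, adjusted p = 0.0176), with overlap. The first was lost without filamentous wild-type array 2 or sfl1-sok2 arrays 1 or 3 (adjusted p up to 0.172) and the second without filamentous wild-type array 2 or sfl1-yap6 arrays 2 or 3 (adjusted p up to 0.196). In the strains where they were not called the changes ran from -1.03 to 0.45 for CYC7 and from -0.68 to 0.42 for CYC1. Among the 40 genes CYC7 had the widest range of colony group means, 3.26 from 5.08 in sfl1-skn7 to 8.33 in sfl1-yap6, and ATP1 the narrowest, 0.50. CYC1 ranged over 1.69, from 10.47 in sfl1 to 12.15 in tec1-sok2.

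ATP synthase subunits were called lower in 4 double strains, all without SFL1. ATP7 read 7.56, 8.52 and 8.49 (-0.74 ± 0.24, adjusted p = 0.0231) in sfl1-skn7, 8.54, 8.22 and 8.16 (-0.63 ± 0.24, adjusted p = 0.0332) in cup9-sfl1 and 8.69, 7.98 and 8.21 (-0.64 ± 0.24, adjusted p = 0.0234) in sfl1-yap6, all under 8.80, 9.06 and 8.95. ATP20 read 5.86, 6.71 and 6.28 (-0.96 ± 0.27, adjusted p = 0.0103) in sfl1-skn7, 6.17, 6.86 and 6.41 (-0.76 ± 0.27, adjusted p = 0.0372) in sfl1-sok2 and 7.04, 6.61 and 5.94 (-0.71 ± 0.27, adjusted p = 0.0351) in cup9-sfl1, all under 7.17, 7.32 and 7.22. ATP3 read 10.05, 10.61 and 10.14 (-0.77 ± 0.21, adjusted p = 0.00671) in sfl1-skn7 and 10.86, 10.52 and 10.00 (-0.58 ± 0.21, adjusted p = 0.0248) in cup9-sfl1, under 11.00, 11.07 and 11.06. None of these groups overlapped the wild type, yet each call was lost without some array: ATP7 without filamentous wild-type arrays 2 or 3 or sfl1-skn7 array 1 (adjusted p up to 0.298), without filamentous wild-type arrays 2 or 3 or cup9-sfl1 arrays 2 or 3 (adjusted p up to 0.133) and without filamentous wild-type arrays 2 or 3 or sfl1-yap6 arrays 2 or 3 (adjusted p up to 0.137), ATP20 without sfl1-skn7 array 1 (adjusted p up to 0.114), without filamentous wild-type arrays 1, 2 or 3 or sfl1-sok2 arrays 1 or 3 (adjusted p up to 0.224) and without filamentous wild-type arrays 1, 2 or 3 or cup9-sfl1 arrays 2 or 3 (adjusted p up to 0.317), and ATP3 without sfl1-skn7 array 1 (adjusted p up to 0.0636) and without filamentous wild-type arrays 1, 2 or 3 or cup9-sfl1 array 3 (adjusted p up to 0.264).

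In sfl1-yap6 ATP2, the catalytic beta subunit, read 11.01, 10.24 and 10.04 (-0.64 ± 0.25, adjusted p = 0.0296), with overlap, and ATP14 of the stalk 9.68, 9.21 and 9.38 (-0.59 ± 0.22, adjusted p = 0.0263), without. The ATP2 call was lost without filamentous wild-type arrays 2 or 3 or sfl1-yap6 arrays 2 or 3 (adjusted p up to 0.203) and that of ATP14 without filamentous wild-type arrays 1 or 3 or sfl1-yap6 arrays 2 or 3 (adjusted p up to 0.115). In the F1 head ATP15 was higher in cup9-yap6 at 11.76, 11.58 and 11.63 (0.57 ± 0.15, adjusted p = 0.00499) and sok2-yap6 at 11.74, 11.38 and 11.61 (0.49 ± 0.15, adjusted p = 0.0242), and ATP16, the delta subunit, in tec1-cup9 at 11.43, 11.37 and 11.48 (0.57 ± 0.14, adjusted p = 0.0208). The other calls in the double strains were COX9 (0.41), QCR8 (-0.59), CYT1 (-0.55) and COX13 (-0.57) in cup9-sfl1, QCR2 (-0.61), QCR8 (-0.61), ATP14 (-0.61) and ATP17 (-0.60) in sfl1-skn7, QCR9 (0.54) and ATP16 (0.48) in cup9-yap6, and ATP5 (-0.52), ATP3 (-0.49) and ATP15 (0.46) in sfl1-yap6. The ATP15 call of cup9-yap6 held without each array, that of sok2-yap6 was lost without filamentous wild-type arrays 1 or 3 or sok2-yap6 arrays 1 or 3 (adjusted p up to 0.158) and that of ATP16 without filamentous wild-type arrays 1 or 2 or tec1-cup9 arrays 1 or 3 (adjusted p up to 0.16).

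HAP4 was called lower in 7 of the 13 double strains, each labelled with an sfl1 or a yap6 deletion. The changes were -1.95 ± 0.31 in sfl1-yap6, -1.52 ± 0.31 in sfl1-skn7, -1.52 ± 0.31 in cup9-yap6, -1.38 ± 0.31 in sfl1-sok2, -1.25 ± 0.31 in cup9-sfl1, -1.14 ± 0.31 in sok2-yap6 and -0.91 ± 0.31 in tec1-sfl1. The sok2-yap6 call was lost without filamentous wild-type array 2 or sok2-yap6 arrays 1 or 3 (adjusted p up to 0.128) and the tec1-sfl1 call without filamentous wild-type arrays 1, 2 or 3 or tec1-sfl1 arrays 2 or 3 (adjusted p up to 0.139). In the other 6 its change ran from -0.41 to 0.56 and was not called. In sfl1-yap6 the retrograde genes DLD3 (-2.54 ± 0.25), PDH1 (-2.29 ± 0.34) and CIT2 (-2.14 ± 0.26), which answer to mitochondrial state, were lower, and AGA1 was higher (1.75 ± 0.25).

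For 12 pairs of deletions the change of the double strain was set against both single changes added together, and 13 of 480 gene and pair values departed from it. The pair labelled cup9-yap6 was left out because CUP9 was not lowered there. All single and double changes share the wild-type arrays. Without single arrays the count ran from 5 to 21 (5 without filamentous wild-type array 1, 21 without skn7 array 2), and with the replicate block it was 7.

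In sfl1-yap6 7 of the 40 genes departed, beside 14.3 percent of all genes. Of the 40 genes 15 percent were higher than the sum and 2.5 percent lower, against 8.32 and 6.02 percent of all genes. STF1 changed by -0.11 and -0.24 in the single strains and 1.24 in the double strain, a departure of 1.59 ± 0.35 (adjusted p = 0.00109). CYC7 changed by -0.32, 0.96 and 2.22, a departure of 1.58 ± 0.55 (adjusted p = 0.042). COX13 (1.19 ± 0.30), CYT1 (1.16 ± 0.30), ATP4 (0.96 ± 0.33) and COX12 (0.88 ± 0.31), lower in sfl1 colonies, were nearer to the wild type in the double strain than the sum, and COX10 was lower than the sum (-0.74 ± 0.22). The STF1, COX13 and CYT1 departures held without each array. The departure of CYC7 was lost without filamentous wild-type arrays 1 or 2 or sfl1 arrays 1 or 2 or yap6 arrays 2 or 3 or sfl1-yap6 arrays 2 or 3 (adjusted p up to 0.168), that of COX10 without filamentous wild-type array 1 or sfl1 array 3 or yap6 array 2 or sfl1-yap6 arrays 1 or 3 (adjusted p up to 0.0856) and that of ATP4 without filamentous wild-type arrays 1, 2 or 3 or sfl1 arrays 1 or 3 or yap6 arrays 1, 2 or 3 or sfl1-yap6 arrays 1 or 3 (adjusted p up to 0.197). That of COX12 was near the threshold (adjusted p = 0.0486) and was lost without most single arrays, each of the filamentous wild type among them (adjusted p up to 0.154 over the alternatives).

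In sfl1-skn7 4 genes departed, beside 10 percent of all genes. Of the 40 genes 7.5 percent were higher than the sum and 2.5 percent lower, near the shares of all genes (5.86 and 4.14 percent). COX17 changed by -1.44 and -1.24 in the single strains and -1.35 in the double strain, a departure of 1.33 ± 0.40 (adjusted p = 0.0303). ATP4 (1.00 ± 0.33) and CYT1 (0.91 ± 0.30) were higher than the sum and NDE2 (-1.10 ± 0.36) was lower. The COX17 departure was lost without filamentous wild-type arrays 2 or 3 or sfl1 array 3 or skn7 array 1 or sfl1-skn7 array 2 (adjusted p up to 0.138), that of ATP4 without filamentous wild-type arrays 1, 2 or 3 or sfl1 arrays 1 or 3 or skn7 arrays 1 or 3 or sfl1-skn7 arrays 2 or 3 or yap6 array 3 (adjusted p up to 0.216), that of CYT1 without filamentous wild-type arrays 1, 2 or 3 or sfl1 arrays 1 or 2 or skn7 arrays 1 or 3 or sfl1-skn7 arrays 2 or 3 (adjusted p up to 0.173) and that of NDE2 without filamentous wild-type arrays 1, 2 or 3 or sfl1 arrays 1 or 3 or skn7 arrays 1 or 3 or sfl1-skn7 arrays 2 or 3 (adjusted p up to 0.155). COA4 was lower than the sum in tec1-cup9 (-1.44 ± 0.27, adjusted p = 0.00176, with 2.62 percent of all genes called), where it read 5.75, 6.58 and 5.70. It was also lower in cup9-sok2 (-1.28 ± 0.29, adjusted p = 0.0182, with 0.827 percent of all genes called), where it read 6.03, 5.91 and 6.05. The first held without each array and the second was lost without filamentous wild-type array 1 or cup9 array 5 or sok2 array 3 or cup9-sok2 array 2 (adjusted p up to 0.109). In the other 8 pairs limma called 0 of the 40 genes (0 to 7 at an unadjusted p under 0.05), with 0.036 percent of all genes called in tec1-sfl1, 0.396 in tec1-sok2, 0 in tec1-skn7, 0.108 in cup9-sfl1, 0 in cup9-skn7, 0.0539 in sfl1-sok2, 0.0719 in sok2-skn7 and 0.899 in sok2-yap6.

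In SC medium most respiratory genes were lower at 2 mM than at 0 mM cAMP, and the arrays at these concentrations also differ in strain. Several genes were higher with the dominant negative RAS2 allele, whose arrays share many values. In the ras1 ras2 pde2 diploids 24 of the 39 genes were lower and 1 was higher at 2 mM than at 0 mM cAMP (61.5 percent lower and 2.56 percent higher, against 7.54 and 12.1 percent of all genes), with a median of -1.92 against 0.13 for all genes. Leaving out 1 array gave 22 to 24 calls. All 5 F1 genes, 6 of 7 cytochrome oxidase subunits, 6 of 9 bc1 subunits, 4 of 6 stalk genes, INH1, CYC7 and NDE2 were lower, and none of 6 assembly factors was called. Within the strain given cAMP the called genes differed. INH1 read 4.85 on the single 1 mM array and 0.99 and 4.24 at 2 mM. ATP1 read 9.84 and 9.33 at 0 mM, 7.32 at 1 mM and 7.91 and 7.52 at 2 mM. A change with concentration within that strain was not tested. Folds of genes near the floor of the SC table depend on the floor, and the change with a higher floor is given below for some of them. In no called gene did the 0 mM and 2 mM arrays overlap, which the call itself makes likely.

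CYC1 was the exception. It read 6.87 and 6.98 at 0 mM, 8.29 at 0.5 mM, 8.07 at 1 mM and 8.84 and 8.74 at 2 mM (1.87 ± 0.23, adjusted p = 0.000194), all below the wild type (9.33, 9.42, 9.46 and 9.41). CYC7 read 8.36 and 8.70 at 0 mM, 6.94 and 5.97 at 0.5 and 1 mM, and 4.31 and 3.99 at 2 mM (-4.38 ± 1.00, adjusted p = 0.00847). The forms of cytochrome c thus moved in opposite directions. The CYC7 call was lost without 0 mM array 2 or 2 mM array 2 (adjusted p up to 0.0587). The slopes over all 6 arrays were 0.85 per mM for CYC1 and -2.15 per mM for CYC7. They mix concentration with strain, since the 0 mM arrays are of another strain than the rest.

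The inhibitor INH1 read 9.96 and 9.56 at 0 mM, 7.08 at 0.5 mM, 4.85 at 1 mM and 0.99 and 4.24 at 2 mM (-7.15 ± 0.76, adjusted p = 7.27e-05, and -6.15 with a floor at the 25th percentile). NDE2 read 7.88 and 8.20 at 0 mM, 4.85 at 0.5 mM and 4.16 at 1 mM and was at the floor on both 2 mM arrays, a change of -5.05 with the floor at the 25th percentile (adjusted p = 3.29e-06) that rests on that floor. NDE1 did not pass (-0.29 ± 0.31), with 7.38 and 7.66 at 0 mM and 7.32 and 7.14 at 2 mM. NDI1 was not called (-4.25 ± 1.78, adjusted p = 0.133), though it was with the floor at the 25th percentile (-4.04, adjusted p = 0.00689).

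Among the subunits QCR10 read 9.48 and 9.43 at 0 mM, 7.95 and 6.84 at 0.5 and 1 mM and 6.47 and 6.14 at 2 mM (-3.15 ± 0.43, adjusted p = 0.000339). ATP15 read 9.35 and 9.51 at 0 mM, 7.72 at 0.5 mM, 6.74 at 1 mM and 7.08 and 6.82 at 2 mM (-2.48 ± 0.38, adjusted p = 0.000663). The single arrays at 0.5 and 1 mM have no replicates, and both lay under the 0 mM arrays for these genes. The other called subunits of the 3 enzymes fell by 1.19 (COX9) to 2.35 (ATP7) on the log2 scale. The COX9 call was lost without 0 mM array 1 or 2 mM arrays 1 or 2 (adjusted p up to 0.156) and that of ATP2 without 0 mM array 2 or 2 mM array 2 (adjusted p up to 0.0806). Among the assembly factors COX15 read 8.97 and 9.19 at 0 mM and 8.95 and 8.83 at 2 mM (-0.19 ± 0.25).

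All 4 succinate dehydrogenase genes were lower at 2 mM, led by SDH2, which read 9.64 and 9.62 at 0 mM and 4.90 and 5.12 at 2 mM (-4.62 ± 0.38, adjusted p = 1.11e-05). HAP4 read 5.80 and 6.24 at 0 mM and 4.31 and 4.24 at 2 mM and was not called (-1.74 ± 1.28), but passed with the floor at the 25th percentile (adjusted p = 0.0191). Of the low-oxygen genes ANB1 (3.99 ± 1.16) and AAC3 (3.67 ± 0.35) were higher, and COX5B, the low-oxygen form of a cytochrome oxidase subunit, read 5.80 and 6.01 and then 1.57 and -0.01. The ANB1 call was lost without 0 mM arrays 1 or 2 or 2 mM arrays 1 or 2 (adjusted p up to 0.148). RME1, a haploid-specific repressor of meiosis, read 6.01 and 5.82 at 0 mM and 0.99 and -0.01 at 2 mM, while the mean log2 level of the haploid and mating markers was 3.01 to 3.14 at 0 mM and 2.11 to 3.08 at 2 mM. Its part in the result was not tested.

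**Figure D4:**
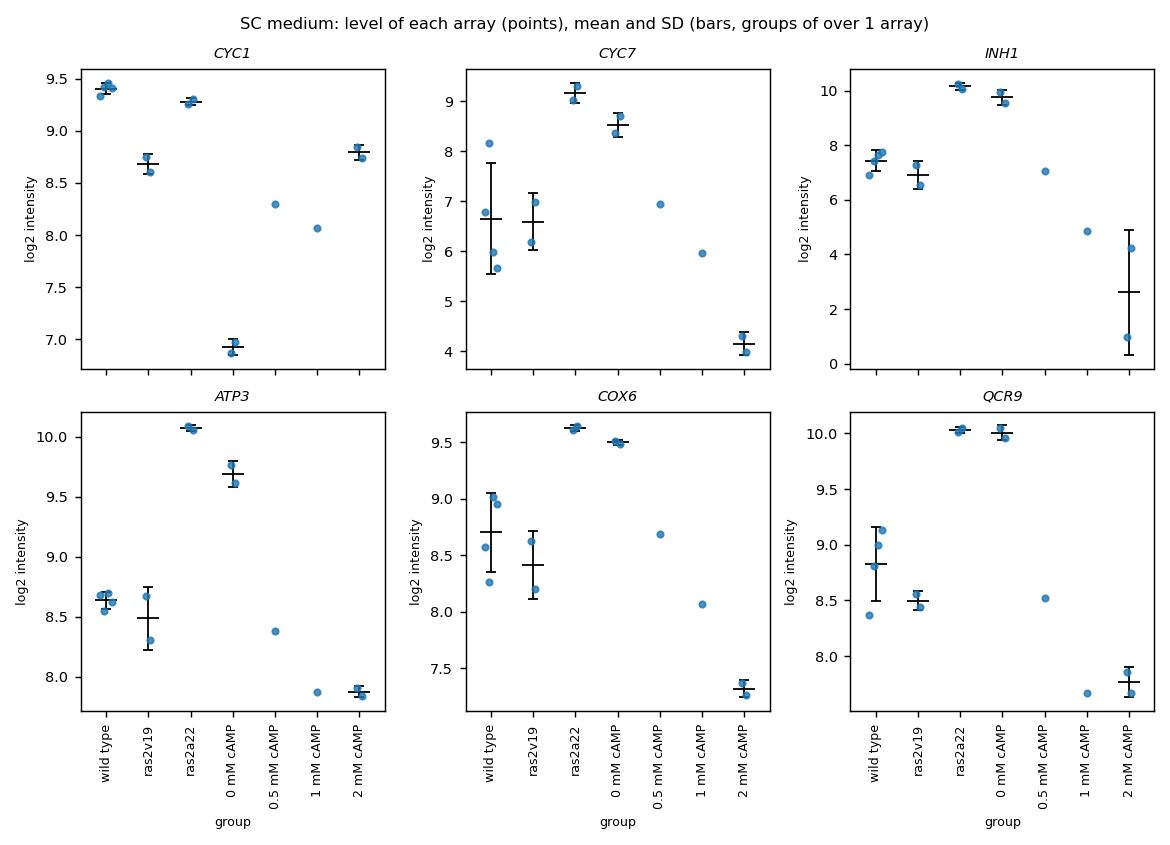
Log2 intensity (vertical axes) of 6 respiratory genes in SC medium, for the wild type (4 arrays), ras2v19 and ras2a22 (2 each) and the ras1 ras2 pde2 diploids at 0, 0.5, 1 and 2 mM cAMP (2, 1, 1 and 2). Points are arrays, horizontal bars means and error bars SD of groups with over 1 array (the ras2a22 arrays share many values). CYC1 is higher at 2 mM (8.74 and 8.84) than at 0 mM (6.87 and 6.98), and the other 5 genes are lower.

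In ras2a22 cells 16 of the 39 genes rose and 0 fell (41 percent, against 3.76 percent of all genes called higher), with a median of 1.13 against -0.03. All 5 F1 genes were among them. The count was 4 without ras2a22 array 1, 3 without array 2, 9 with the replicate block and 6 in a fit of only these groups. With both ras2a22 arrays counted as 1 sample, which is then assumed to vary like the other groups, it was 2: NDE2 (3.73 ± 0.63, adjusted p = 0.0115) and ATP3 (1.44 ± 0.29, adjusted p = 0.0277). ATP16 then missed the threshold (adjusted p = 0.0505) and the rest had adjusted p of 0.0720 to 0.243. NDE2 read 7.03 and 7.34 in ras2a22 and 4.24, 2.36, 3.45 and 3.80 in the wild type (3.73 ± 0.47, adjusted p = 0.000569). INH1 read 10.25 and 10.07 against 6.92, 7.43, 7.65 and 7.77 (2.72 ± 0.66, adjusted p = 0.0263). ATP16 read 9.36 and 9.31 against 7.44, 7.78, 7.91 and 8.0 (1.56 ± 0.26, adjusted p = 0.00376). In none of the 16 did the groups overlap, but 12 of the 16 calls, all except NDE2, ATP3, ATP16 and COX13, were lost without either ras2a22 array, and that of COX13 without array 2.

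ATP15 read 9.49 and 9.90 in ras2a22 against 8.30, 7.75, 8.28 and 8.14 (1.58 ± 0.32, adjusted p = 0.0122), and ATP17 9.42 and 9.53 against 7.78, 7.89, 8.47 and 7.88 (1.47 ± 0.27, adjusted p = 0.00662). The other 11 rose by 0.86 (ATP5) to 1.44 (ATP3). CYC1 at 9.25 and 9.30 (-0.13 ± 0.20) and CYC7 at 9.03 and 9.31 against 6.78, 8.17, 5.99 and 5.66 (2.52 ± 0.87, adjusted p = 0.107) were not called, nor was HAP4 (1.85 ± 1.11), which passed with the floor at the 25th percentile (adjusted p = 0.0127). SDH2 (2.29 ± 0.33), SDH1 (1.86 ± 0.44) and SDH4 (1.79 ± 0.25) of 4 succinate dehydrogenase genes rose, and CIT2, a retrograde gene, fell (-4.30 ± 0.23). The SDH1 call was lost without wild-type array 3 or ras2a22 arrays 1 or 2 (adjusted p up to 0.163). With both arrays counted as 1 sample SDH2 (adjusted p = 0.0272), SDH4 (0.0249) and CIT2 (4.98e-05) were still called and SDH1 was not (0.156).

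With the dominant active allele limma called 0 of 39 genes against the wild type (5 at an unadjusted p under 0.05, and 1 by eBayes with trend and robust, with 0.144 percent of all genes called). Set directly against ras2a22, 14 genes were lower in ras2v19 and 0 higher (35.9 percent, against 3.18 percent of all genes called lower), with a median of -1.40 against 0 for all genes. INH1 read 7.27 and 6.54 in ras2v19 (-3.26 ± 0.76, adjusted p = 0.0269) and NDE2 3.95 and 4.74 (-2.84 ± 0.54, adjusted p = 0.00896), against the ras2a22 values above. QCR2 read 6.94 and 6.42 against 8.57 and 8.72 (-1.97 ± 0.49, adjusted p = 0.0354). ATP15 read 8.36 and 7.28 (-1.88 ± 0.38, adjusted p = 0.0122) and ATP16 7.78 and 7.39 (-1.76 ± 0.30, adjusted p = 0.00522). In none of the 14 did the groups overlap. The count was 1 in a fit of only these groups and 25 with a floor at the 25th percentile, without the shares of all genes beside them. It was 4 without ras2v19 array 2, 4 without ras2a22 array 1 and 2 without ras2a22 array 2. With both ras2a22 arrays counted as 1 sample it was also 2, ATP3 (-1.59 ± 0.31, adjusted p = 0.0312) and ATP16 (-1.76 ± 0.38, adjusted p = 0.0449), the genes that also held without each array. CYC1 at 8.74 and 8.61 (-0.60 ± 0.23), CYC7 at 6.19 and 6.99 (-2.58 ± 1.00) and HAP4 at 3.95 and -0.01 (-4.42 ± 1.28, adjusted p = 0.0638) were not called. HAP4 is at the floor on 1 of these arrays, and with the floor at the 25th percentile its change was -2.92 (adjusted p = 0.00236).

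The ira1, ira1RA and ira2 strains also differ from the wild type at leu2 and his3, so these markers and the ira genotype cannot be told apart. In ira2 cells 11 of the 39 genes fell and 0 rose (28.2 percent, against 1.92 percent of all genes called lower), with a median of -1.15 against -0.18. Quantile normalization shifted the median of all genes by 0.20 in this comparison (0.14 in ira1 and 0.13 between ras2v19 and ras2a22) and left 4 calls, with the calls over all genes going from 9 higher and 107 lower to 17 and 49. COX8, a small cytochrome oxidase subunit, read 7.59 and 7.15 in ira2 and 8.57, 8.84, 9.14 and 9.08 in the wild type (-1.54 ± 0.25, adjusted p = 0.0095), and held without each array. INH1 read 3.53 and 3.99 against 6.92, 7.43, 7.65 and 7.77 (-3.69 ± 0.66, adjusted p = 0.016), lost without wild-type array 3 or ira2 array 1 (adjusted p up to 0.0958). ATP14 read 4.03 and -0.01, the second at the floor, against 6.48, 6.86, 7.29 and 7.13, a change of -3.43 with the floor at the 25th percentile (adjusted p = 0.000113).

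QCR2 read 4.19 and 6.16 in ira2 against 7.30, 7.02, 7.36 and 7.20 (-2.04 ± 0.42, adjusted p = 0.031) and QCR10 5.94 and 7.09 against 7.64, 8.06, 8.52 and 8.64 (-1.70 ± 0.37, adjusted p = 0.0393). The other 6 (ATP2, COX4, ATP4, COX12, ATP7 and COX13) fell by 1.20 to 1.48. No groups overlapped, but the count was 2 without wild-type array 3, 3 without wild-type array 4, 3 without ira2 array 1, 1 in a fit of only these groups, 4 with both ras2a22 arrays counted as 1 sample (COX4, COX8, ATP14 and INH1) and 0 with the replicate block, which nothing in the SC table shows to pair the arrays. CYC1 at 8.69 and 8.39 (-0.86 ± 0.20, adjusted p = 0.0534), CYC7 at 7.90 and 4.94 (-0.23 ± 0.87) and HAP4 (-2.38 ± 1.11, with 1 ira2 array at the floor, and -0.88 with the floor at the 25th percentile) were not called.

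Against the wild type limma called 0 of 39 genes in ira1 (22 at an unadjusted p under 0.05, 0.234 percent of all genes called, median -0.94) and 0 in ira1RA (11 unadjusted, 0.0719 percent, median -0.57). In ira1 eBayes with trend and robust called 10 lower, the floor at the 25th percentile 8 lower and 1 higher, and the filter on dim genes 5 lower. The shares of all genes under these alternatives are not given here. The count in ira1 was 3 without wild-type array 1 and 2 without ira1 array 1. Between ira1 and ira1RA 0 were called (5 unadjusted, 0.126 percent of all genes called). CYC1 read 9.07 and 9.19 in ira1 and 8.67 and 8.54 in ira1RA. CYC7 read 6.53 and 4.63 in ira1 and 6.68 and 5.48 in ira1RA. HAP4 read 5.03 and 5.29 and then 4.36 and 3.45.

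**Figure D5:**
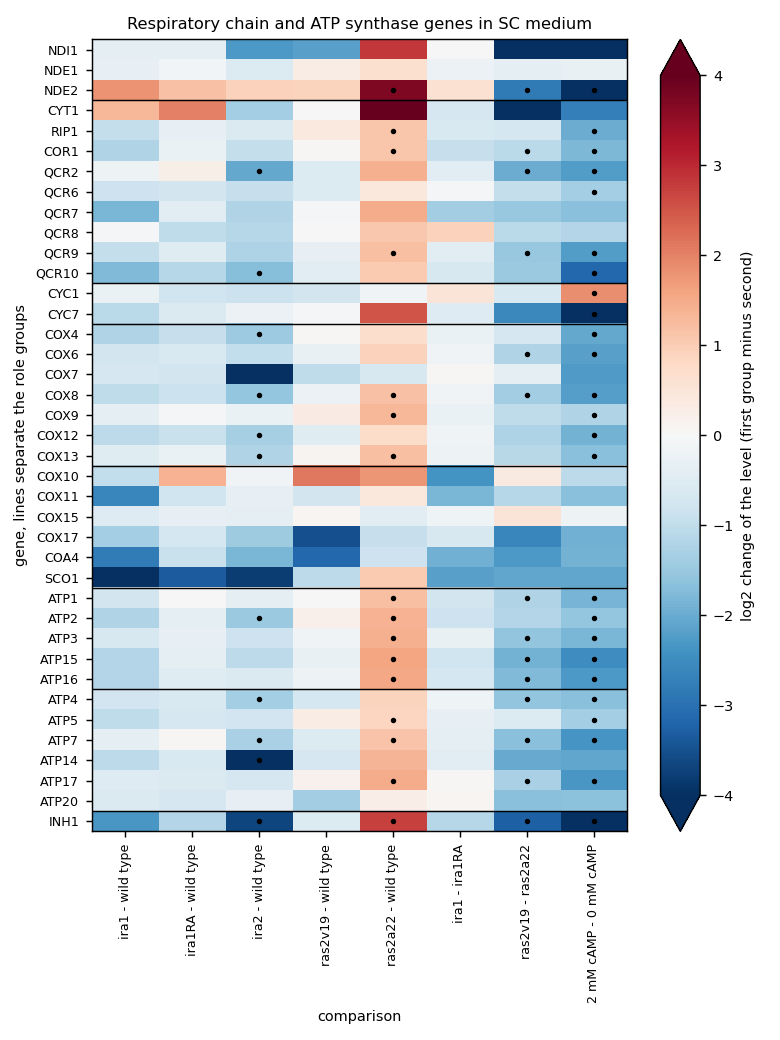
Change of each of the 39 genes (rows, with lines between the role groups) in the 8 comparisons of the SC table (columns), as a colour from -4 (blue) to 4 (red) on the log2 scale. Dots mark calls. Most rows are red for ras2a22 against the wild type (median 1.13) and blue for 2 mM against 0 mM cAMP (median -1.92), where CYC1 is red (1.87).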

How the data were processed

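RNA of 70 colony samples and 20 SC samples was measured on Affymetrix arrays. The deposited colony table holds log2 values made by RMA, per the submitters' processing notes, with array medians of 6.27 to 6.68. The deposited SC table holds intensity values from 1 to 16048, with no account of their making in the sources used here (not given in labels or headers). Of 6739 colony probe sets 5668 had 1 gene, 166 several and 905 none, and of 6178 SC probe sets 5595 had 1 gene and 583 none, named through RefSeq. For 80 and 34 genes with several probe sets the one with the highest mean was used.

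SC intensities were scaled to a common median (factors 0.96 to 1.03), floored at their 10th percentile (0.993) and put on the log2 scale. The deposited value was 1, the lowest, for 6.77 to 25.6 percent of an array's probe sets, so changes of dim genes depend on the floor. Each table was tested alone with limma 3.58.1 (R 4.3.3), 1 mean per group, eBayes and Benjamini-Hochberg adjustment over all genes (49 and 10 residual degrees of freedom), and isoform differences by an exact permutation test (scipy 1.17.1). The departure from additivity is the double change minus both single changes.

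On simulated data with 200 changed genes, drawn from all genes, the fit between the forms called 44.2 percent of 0.5 log2 changes and 96.4 percent of 1 log2 changes. Between cAMP concentrations it called 27.6 percent of 2 log2 changes. The replicate number was taken to pair arrays where each of 3 or more same-numbered pairs correlated at over 0.1. The forms alone met this (0.113 to 0.254). In other comparisons, some of them positive in every pair but lower in 1 or more, such as sok2 (0.0752 to 0.408), it was not met, and over all comparisons correlations ran from -0.377 to 0.443.

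Every array is given for up to 5 called genes in each direction by size of change, for CYC1 and CYC7 where the text turns on them, and for the sole called gene of a role group. Of the other lists up to 4 called genes are named, and HAP4. The genes and lists were chosen with earlier results of these data known. Alternatives were quantile normalization, a filter on dim genes, the mean of probe sets, the replicate block, limma's trended robust prior, a fit restricted to both groups of a comparison, a floor at the 25th percentile, the slope over cAMP and leaving out each array. After seeing that both ras2a22 arrays share many deposited intensities, a fit that counts them as 1 sample (the mean of their log2 values) was added.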

Additional observations from a re-analysis of the deposited data

Results flagged for a closer look

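For each respiratory gene the 4 groups of 4 to 6 arrays were searched for an array far from the rest. This gave 159 sets of values, of which 11 held one, where chance flags about 1 in 20. NDE1 read 12.7 in wild-type yeast-form replicate 1, below the other arrays. In the strain labelled tec1 replicate 3 was lowest for QCR8 (9.98), QCR9 (10.1) and ATP20 (6.54). In the strain labelled cup9 replicate 1 was highest for RIP1 (11.8) and lowest for ATP2 (10.5), and replicate 5 was highest for CYC1 (12.3) and lowest for COX7 (10.4) and ATP14 (9.77). In SC wild-type cells COX10 was at the floor in replicate 1 (-0.00998, others 4.80 to 5.42) and ATP17 was highest in replicate 3 (8.47, others 7.78 to 7.89).

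The change of a double deletion differed from the sum of the single changes for 13 of 480 gene and pair values, by limma's test of that difference. COA4 departed by -1.44 in tec1-cup9 and -1.28 in cup9-sok2. In sfl1-skn7 the departures were -1.10 for NDE2, 0.91 for CYT1, 1.33 for COX17 and 1.00 for ATP4. In sfl1-yap6 they were 1.16 for CYT1, 1.58 for CYC7, 0.88 for COX12, 1.19 for COX13, -0.74 for COX10, 0.96 for ATP4 and 1.59 for STF1. Over all genes 2.62 percent departed in tec1-cup9, 0.827 percent in cup9-sok2, 10 percent in sfl1-skn7 and 14.3 percent in sfl1-yap6. Departures were therefore not particular to the respiratory genes.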

How the results depend on the processing

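No called change of a respiratory gene turned direction under any alternative run. Over 224 called changes and 3726 alternative values, 3006 stayed past the threshold and 720 did not, and 68 of the 224 passed under all alternatives. Counts of called genes moved by over 1.5 times as follows, and the causes were not tested. The shares of all genes are not set beside these counts, which show stability and not a change particular to the respiratory genes. A fit of only the groups compared gave 0 in cup9, 2 in sok2, 17 in yap6, 2 in tec1-cup9, 12 in tec1-sfl1, 0 in tec1-sok2, 13 in tec1-skn7, 9 in cup9-sok2, 7 in cup9-skn7, 7 in sok2-skn7, 1 in ira1, 1 in ira2, 6 in ras2a22 and 1 between ras2v19 and ras2a22. Quantile normalization gave 1 in sok2, 2 in tec1-cup9, 7 in tec1-sfl1, 3 in tec1-sok2 and 4 in ira2, and NDE2 minus NDE1 at 0.30. The replicate block gave 0 in tec1, 2 in tec1-sfl1, 7 departures, 0 in ira2 and 9 in ras2a22. It gave the isoform differences as 0.82 for CYC7 minus CYC1, 0.67 for NDE2 minus NDE1 and 1.18 for STF1 minus INH1. The block was taken as a pairing for the forms, by the bar on correlations given above. It called 18 there, and CYC7 was the one call it ended. Without both libraries that read against their labels tec1 gave 0. Counting both ras2a22 arrays as 1 sample, chosen after seeing the data, gave 2 in ras2a22, 2 between ras2v19 and ras2a22 and 4 in ira2. Leaving out dim genes gave 5 in ira1 and 17 in ira2. eBayes with trend and robust gave 10 in ira1, 1 in ira1RA, 19 in ira2 and 1 in ras2v19. The floor at the 25th percentile gave 9 in ira1, 1 in ira1RA, 19 in ira2, 1 in ras2v19 and 25 between ras2v19 and ras2a22.

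Leaving out 1 array in turn gave 16 to 20 calls between the forms, 0 to 1 in tec1, 1 to 2 in cup9, 9 to 16 in sfl1, 0 in sok2, 2 to 17 in skn7, 3 to 7 in yap6, 1 to 8 in tec1-cup9, 1 to 3 in tec1-sfl1, 0 to 12 in tec1-sok2, 5 to 6 in tec1-skn7, 4 to 23 in cup9-sfl1, 0 to 5 in cup9-sok2, 1 to 6 in cup9-skn7, 0 to 6 in sfl1-sok2, 3 to 13 in sfl1-skn7, 0 to 2 in sok2-skn7, 4 to 7 in cup9-yap6, 6 to 13 in sfl1-yap6 and 1 to 5 in sok2-yap6. It gave 5 to 21 departures. In SC medium it gave 0 to 3 in ira1, 0 to 1 in ira1RA, 2 to 13 in ira2, 0 to 2 in ras2v19, 3 to 18 in ras2a22, 0 between ira1 and ira1RA, 2 to 10 between ras2v19 and ras2a22, and 22 to 24 for cAMP. CYC7 minus CYC1 ran from 0.87 to 1.03, NDE2 minus NDE1 from 0.47 to 0.75 and STF1 minus INH1 from 1.09 to 1.23. Without a filamentous array the smallest p that the permutation test can give is higher. With 2 or 3 arrays in most groups, changes of 0.5 in the colonies and of 2 in SC medium often went uncalled in genes drawn from all genes. Dim SC genes, which lie near the floor, are among those. What the fit could call in the respiratory genes alone was not tested.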
